A study of Mus musculus with 12 samples.

Results

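The question described here was whether mouse embryos from 2 diet groups answered an siRNA against Nampt in different ways. Nampt encodes nicotinamide phosphoribosyltransferase (visfatin), the enzyme that starts the salvage of nicotinamide into NAD. For each of 14743 genes, of 24411 listed, the log2 fold change of siNampt over a reference was taken in each diet, and the ND value was subtracted from the HFD value. This difference between the diets is positive where siNampt embryos were relatively higher in HFD than in ND. Its members are all genes tested, in 8 of the 12 libraries when the non-targeting siRNA was the reference, and in 8 when the control was. The siNampt libraries are the same in both, so the 2 references are given side by side and are not independent.

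All libraries came from wild-type ICR mice, an outbred stock. Oocytes of superovulated females were fertilized in vitro and the embryos were cultured in KSOM medium to the blastocyst stage at 96 h post insemination (hpi). Groups were named by diet, ND or HFD, which the labels do not spell out (the series title speaks of normal weight and obese mice), and by treatment: control (C), non-targeting siRNA (siNT) or Nampt siRNA (siNampt). The siRNAs were electroporated into 1-cell embryos at 3 to 6 hpi; for C embryos the sources used here do not say whether they were electroporated. Each of the 6 groups has 2 libraries, each from a pool of 10 embryos, and replicate numbers 1 and 2 are also the batch labels 1 and 2. The labels leave unstated whether the pools of a group had different parents, and each p-value below is relative only to pool-to-pool spread, which may be technical. A pool mixes cell types, so fewer cells of a type and less RNA per cell cannot be told apart, and an siRNA lowers a transcript without deleting the gene.

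A blastocyst has an outer epithelium, the trophectoderm, which pumps fluid into the cavity and later forms placenta, and an inner cell mass that gives rise to the embryo proper and the primitive endoderm. Ligands of the TGF-beta superfamily (Nodal, BMPs, activins) signal through receptor kinases to SMAD proteins, which enter the nucleus and set transcription of targets such as the Id genes. Toll-like and interleukin-1 receptors signal through the adaptor Myd88 to NF-kappaB. NAD made by Nampt is the electron carrier of central metabolism and the substrate of sirtuins and poly-ADP-ribose polymerases.

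No gene passed an adjusted p of 0.05 (edgeR quasi-likelihood test, Benjamini-Hochberg over all 14743 genes). The called share was 0% with siNT as the reference, with C, with their mean, and for the siNT response itself (siNT against C, HFD minus ND). At an unadjusted p under 0.05, edgeR called 451 genes (3.06%) with the siNT reference. Of these, 212 (1.44%) were higher in the HFD response and 239 (1.62%) lower. With RLE size factors in place of TMM the split was 205 and 254, and limma on log2 TPM, which differs in test, unit and filter (9729 genes), gave 90 and 201. With C as reference there were 620 genes (4.21%), 275 higher and 345 lower (293 and 221 after a correction for GC content and length, 200 and 152 with limma), with the mean of siNT and C 601 (4.08%), and for the siNT response 371 (2.52%). A uniform spread of p-values would give 737 genes, more than any of these. With a term for replicate number within each diet, edgeR gave 685 (siNT), 859 (C) and 874 (mean) genes at that unadjusted p. With a covariate for the level of Y-linked genes it gave 546, 796 and 774. The counts with C and with the mean were thus above 737 in both settings. Without these terms, the smallest adjusted p was 1 for siNT, 0.976 for C and 0.983 for the mean reference. The median standard error (SE) was 0.318 on the log2 scale over the 8483 genes that averaged 5 CPM or more (CPM, counts scaled to a common library size). DESeq2 called 0 genes with siNT, 5 with C and 1 for the siNT response. The genes named below describe these libraries and none was called by edgeR in this fit; "higher" and "lower" state measured values.

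**Figure D1:**
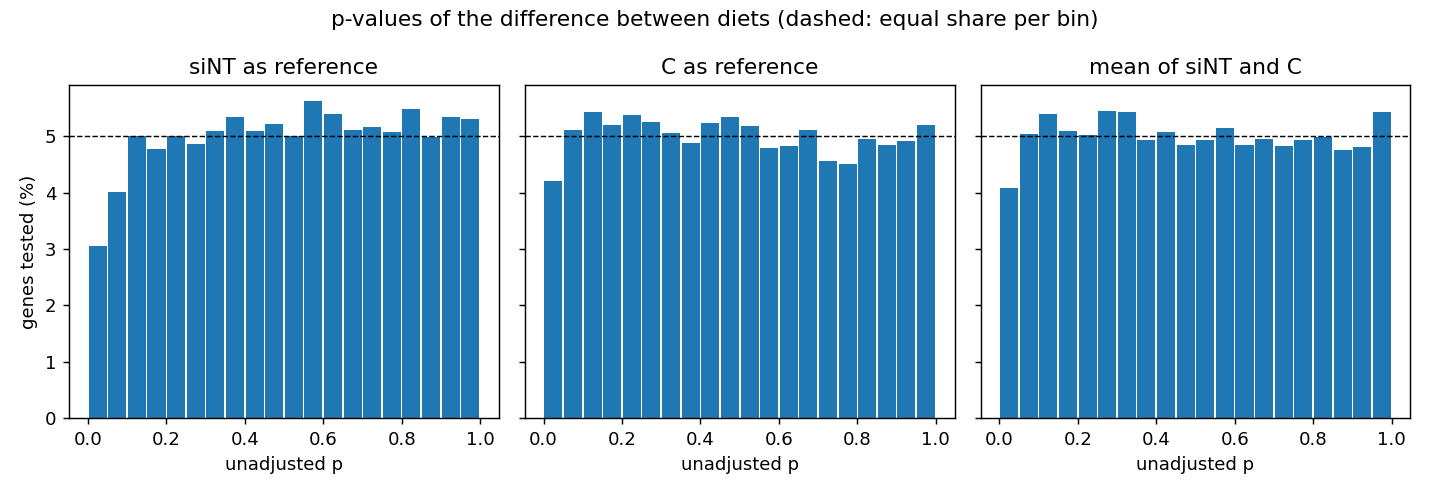
Share of the genes tested (y axis, percent) in each p-value bin of width 0.05 (x axis, unadjusted p of the difference between diets, edgeR), for the siNT, C and mean references. The first bar holds 3.06%, 4.21% and 4.08% of genes, below the dashed line of an equal share in all 3 panels.

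Of the 451 genes with the siNT reference, 9 had an unadjusted edgeR p under 0.05 in both diets, 213 in ND alone, 111 in HFD alone and 118 in neither. By sign alone, 424 had opposite signs in the 2 diets, against 39.9% of all genes tested. Of the 451, 205 were lower with siNampt in ND and higher in HFD, and 219 were higher in ND and lower in HFD. With C as reference, 593 of 620 had opposite signs, against 52.1% of all genes. The difference used to pick these genes favours opposite signs, so the shares are a description of the rule's outcome. Genes whose siNampt and siNT libraries did not overlap in either diet, in opposite directions, numbered 270 (1.83%) that were up in HFD and 256 (1.74%) that were down in HFD. With C in place of siNT they numbered 402 (2.73%) and 350 (2.37%).

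**Figure D2:**
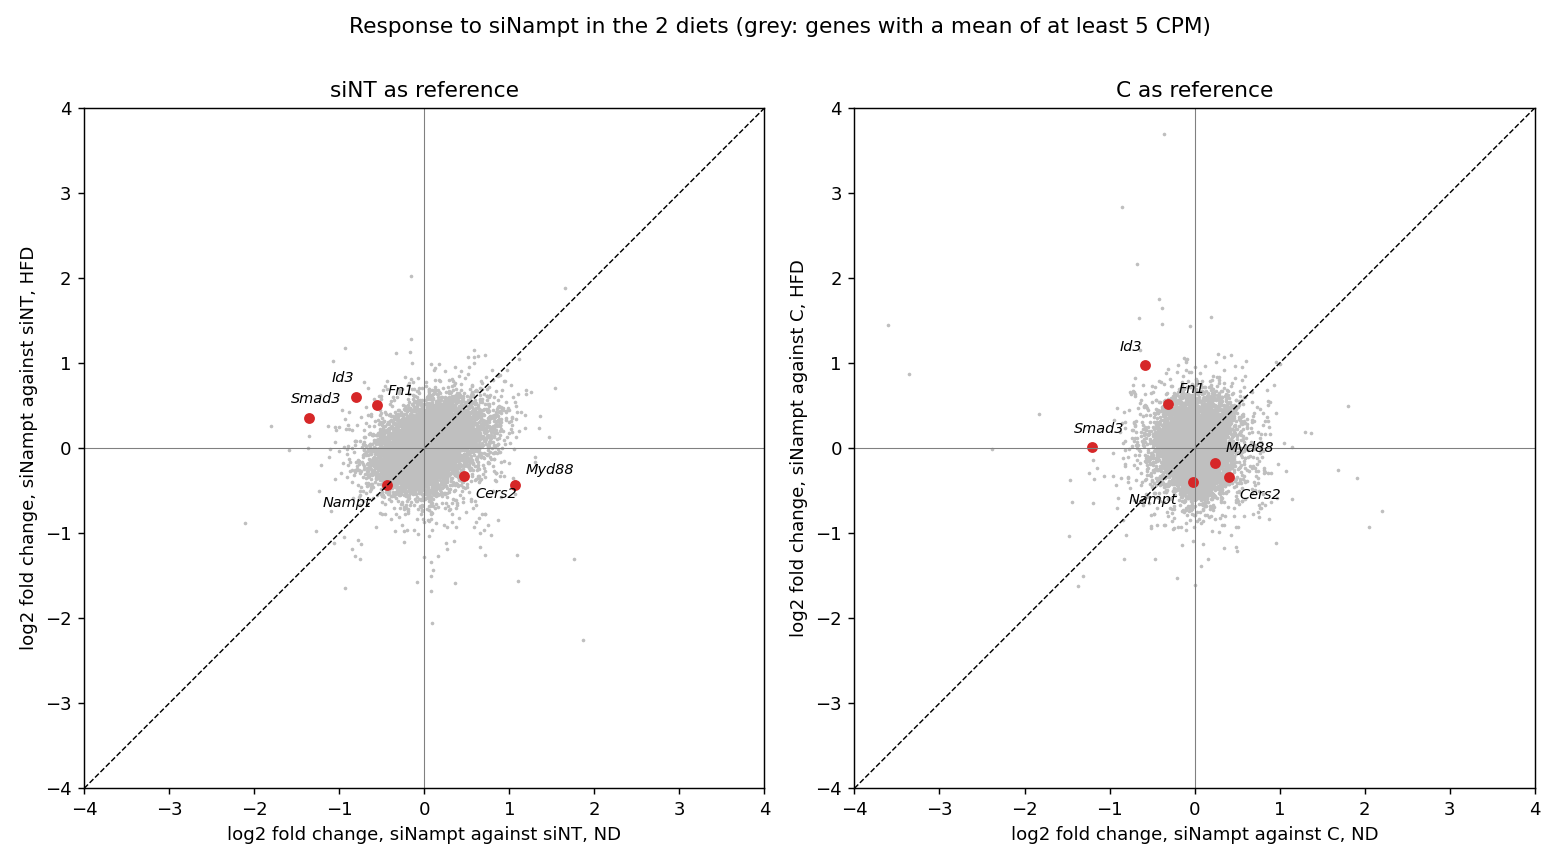
Log2 fold change of siNampt in ND (x axis) against HFD (y axis), with siNT (left) or C (right) as reference; grey points are the 8483 genes that averaged 5 CPM or more, and red points are named genes. Smad3, Id3 and Fn1 lie left of the dashed line of equal response and Myd88 and Cers2 right of it, while Nampt lies on it with siNT as reference; 1 gene lies outside the right panel.

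Nampt itself (GRCm38.p6 chromosome 12, 32820335 to 32853369) checks the knockdown by diet. In ND its level was 74.6 and 49.4 CPM with siNT and 53.9 and 37.7 with siNampt, and in C 54.2 and 38.2. In HFD it was 61.3 and 66 CPM with siNT, 50.3 and 44 with siNampt, and 67 and 57.3 in C. Batch 1 was the higher library in every ND group, and the siNampt libraries lay below siNT of the same batch in the pairs of both diets and with both batches. The ND groups overlapped. In HFD both siNampt libraries lay below those of siNT and C, while siNT and C overlapped. The log2 fold change was -0.44 (SE 0.24) in ND and -0.43 (SE 0.24) in HFD against siNT. Their difference was 0.005 (SE 0.34, 95% interval -0.74 to 0.75). An exact two-sided permutation test on log2 CPM over 36 arrangements gave p = 0.944, where the smallest possible p was 0.0556. Against C, Nampt was -0.01 in ND and -0.40 in HFD, a difference of -0.38 (SE 0.34) with an exact permutation p of 0.444.

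Myd88, Smad3 and Fn1 had the lowest or near lowest p-values of the siNT comparison. Promoters of Smad3 and Id3, which were both relatively higher in the HFD response, and of Myd88, which was lower, are printed to show the regions upstream of these leading genes (RefSeq, GRCm38.p6, 250 bases before to 50 after the start, 5′ to 3′ on the gene's strand). Capitals mark CAGAC or its reverse complement GTCTG, the core letters of a SMAD-binding element.

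Smad3, chr9:63757945-63758244, minus strand: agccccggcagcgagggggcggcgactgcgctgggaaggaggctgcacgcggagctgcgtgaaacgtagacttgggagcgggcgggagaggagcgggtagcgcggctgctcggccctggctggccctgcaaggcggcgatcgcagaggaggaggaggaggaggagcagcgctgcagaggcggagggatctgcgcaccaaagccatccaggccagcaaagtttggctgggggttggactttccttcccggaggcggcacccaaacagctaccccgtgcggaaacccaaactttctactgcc
Id3, chr4:136143572-136143871, plus strand: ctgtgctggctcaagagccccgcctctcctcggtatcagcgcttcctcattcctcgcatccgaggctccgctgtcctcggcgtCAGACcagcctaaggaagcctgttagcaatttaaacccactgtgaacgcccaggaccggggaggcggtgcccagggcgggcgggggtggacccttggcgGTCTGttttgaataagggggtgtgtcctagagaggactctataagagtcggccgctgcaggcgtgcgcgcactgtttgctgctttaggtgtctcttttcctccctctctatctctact
Myd88, chr9:119339969-119340268, minus strand: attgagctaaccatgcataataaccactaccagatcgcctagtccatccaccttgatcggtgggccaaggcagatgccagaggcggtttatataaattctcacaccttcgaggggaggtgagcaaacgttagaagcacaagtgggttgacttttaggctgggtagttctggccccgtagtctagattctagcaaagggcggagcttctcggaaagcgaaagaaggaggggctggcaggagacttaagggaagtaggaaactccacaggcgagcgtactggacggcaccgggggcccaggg

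Searched on both strands, CAGAC occurred 2 times in the Id3 window and not in the windows of Smad3 or Myd88, and 49.6% of 32851 promoters of the same length hold it. GGCGCC, the GC-rich element bound by BMP-activated SMADs, occurred in none of the 3 and in 11.9% of all. These windows held 25 (Smad3), 19 (Id3) and 13 (Myd88) CG dinucleotides, where the median promoter has 7. Each match is a description of letters only.

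Myd88 (chromosome 9, 119335934 to 119340018), the adaptor of Toll-like and interleukin-1 receptors, had the lowest p of the genes lower in the HFD response. In ND it stood at 8.48 and 7.17 CPM with siNT, 17.5 and 15.1 with siNampt, and 12.6 and 15.1 in C. In HFD it stood at 13.6 and 12.4 with siNT, 10.3 and 8.93 with siNampt, and 9.58 and 12.2 in C. The siNampt libraries lay above both siNT libraries in ND and below both in HFD; the C libraries of ND lay near siNampt, and those of HFD overlapped it. The log2 fold change was 1.06 (SE 0.23) in ND and -0.43 (SE 0.23) in HFD. The difference was -1.49 (SE 0.33, 95% interval -2.20 to -0.78, edgeR unadjusted p 0.000607, adjusted p 1), and it was -1.43 in batch 1 and -1.54 in batch 2. With C as reference it was -0.41 (SE 0.32, 95% interval -1.11 to 0.29, unadjusted p 0.227), and the siNT response itself (siNT over C, HFD minus ND) was 1.08 (SE 0.33).

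Smad3 (chromosome 9, 63646766 to 63757994), the SMAD that carries TGF-beta, activin and Nodal signals, was low in a single group. Its level was 5.55 and 5.51 CPM with siNT in ND, 2.07 and 2.26 with siNampt, and 5.38 and 4.63 in C. In HFD it was 4.06 and 3.58 with siNT, 4.98 and 4.8 with siNampt, and 4.62 and 5.08 in C. The 2 ND siNampt libraries were below all 10 others. The log2 fold change was -1.35 (SE 0.28) in ND and 0.36 (SE 0.27) in HFD, a difference of 1.71 (SE 0.38, 95% interval 0.87 to 2.54, edgeR unadjusted p 0.00076, adjusted p 1). With C as reference it was 1.22 (SE 0.38, 95% interval 0.39 to 2.05, unadjusted p 0.00761). The 2 batches gave 1.70 and 1.69 with siNT, and 1.47 and 0.94 with C.

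Fn1 (chromosome 1, 71585473 to 71653280) encodes fibronectin, a matrix protein bound by integrins. In ND it stood at 57.5 and 59 CPM with siNT, 43.4 and 35.8 with siNampt, and 50.8 and 47.6 in C. In HFD it stood at 52.4 and 47.6 with siNT, 75 and 66.6 with siNampt, and 40.7 and 58 in C. The siNampt libraries lay below both references in ND and above both in HFD, with no overlap. The difference was 1.06 (SE 0.27, 95% interval 0.47 to 1.64, edgeR unadjusted p 0.00194) with siNT and 0.83 (SE 0.27, unadjusted p 0.00902) with C.

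Id3 (chromosome 4, 136143822 to 136145392), a BMP and SMAD target that holds back basic helix-loop-helix factors, had its lowest library in ND siNampt. With siNT it was 41.7 and 39.4 CPM in ND and 34.2 and 27.2 in HFD. With siNampt it was 16.9 and 29.7 in ND and 43 and 50.3 in HFD, and in C it was 42.6 and 27.2 in ND and 24.3 and 23.1 in HFD. The HFD siNampt libraries were above all 4 HFD references, while in ND the C library of batch 2 lay between the siNampt libraries. The difference was 1.4 (SE 0.38, 95% interval 0.57 to 2.24, edgeR unadjusted p 0.00323) with siNT and 1.56 (SE 0.39, unadjusted p 0.00152) with C.

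Among the 12 genes of smallest p that were higher in the HFD response (siNT reference, average of 2 CPM or more) were further genes with close replicates. Pnpla6, a phospholipase of the endoplasmic reticulum, was 22.4 and 25.8 CPM with siNampt in ND, against 36.8 and 35.5 with siNT and 38.8 and 36.5 in C. In HFD it was 38.1 and 38.6 with siNampt, against 32.4 and 29.4 with siNT and 29 and 24.1 in C, with no overlap in either diet. Its difference was 0.90 (SE 0.24) with siNT and 1.17 (SE 0.24) with C, with edgeR unadjusted p of 0.00294 and 0.000388. Ifitm2, an interferon-inducible membrane protein, was 98.7 and 97.2 CPM with siNampt in ND and 124 and 150 in HFD. Its siNT libraries held 141 and 135 CPM in ND and 101 and 123 in HFD, and its difference was 0.79 (SE 0.22) with siNT and 0.84 (SE 0.22) with C. Usp9x, an X-linked deubiquitinase, had 91 and 82.3 CPM with siNampt in ND against 123 and 121 with siNT, and 123 and 114 in HFD against 90.5 and 101; its difference was 0.80 (SE 0.21) with siNT and 0.51 (SE 0.21) with C. The 573 X-linked genes tested had medians of 0.053 (siNT) and 0.109 (C). Frmd4b had a difference of 1.03 (C 0.66), Tubgcp6, a subunit of the gamma-tubulin ring, 1.48 (C 0.97), and Apod, a lipocalin, 1.70 (C 0.69). Fry had 1.55 with siNT and 0.09 with C, so that its value rests on the siNT libraries.

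Among the genes of smallest p that were lower in the HFD response, Cers2, the ceramide synthase of very long acyl chains, was 606 and 551 CPM with siNampt in ND, against 441 and 395 with siNT and 424 and 453 in C. In HFD it was 347 and 451 with siNampt, against 512 and 493 with siNT and 505 and 507 in C. The siNampt libraries were above all 4 references in ND and below all 4 in HFD. Its difference was -0.80 (SE 0.21, 95% interval -1.25 to -0.35, edgeR unadjusted p 0.00201) with siNT and -0.74 (SE 0.21, unadjusted p 0.00338) with C. Tpm4, a tropomyosin of the actin filament, was 955 and 959 CPM with siNampt in ND against 774 and 821 with siNT and 660 and 671 in C. In HFD it was 578 and 723 with siNampt against 802 and 917 with siNT and 817 and 910 in C, again without overlap. Its difference was -0.67 (SE 0.20) with siNT and -0.93 (SE 0.20) with C.

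Further genes of small p in this direction had negative values with both references. Capg, which caps actin filaments, had -0.98 (C -0.25), Csrp1 had -0.64 (C -0.73), and Dstn, which severs them, had -0.57 (C -1.16). Bcat1, the cytosolic branched-chain aminotransferase, was 192 and 165 CPM with siNampt in ND against 124 and 123 with siNT, and 132 and 138 in HFD against 143 and 152; its difference was -0.66 (SE 0.19) with siNT and -0.44 (SE 0.19) with C. Vps45, a regulator of vesicle fusion, had -0.86 with siNT and -1.38 with C, and Sgk3, an endosomal kinase, had -0.59 and -1.10. Aqp3, a channel for water and glycerol, had -0.92 and -0.66. Ero1l, the oxidase of the endoplasmic reticulum, had -1.02 and -0.23, and Nub1 -0.77 and -0.52. Tmem254c, which has near-identical copies between which reads cannot be split with certainty, had -1.59 and -0.45.

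**Figure D3:**
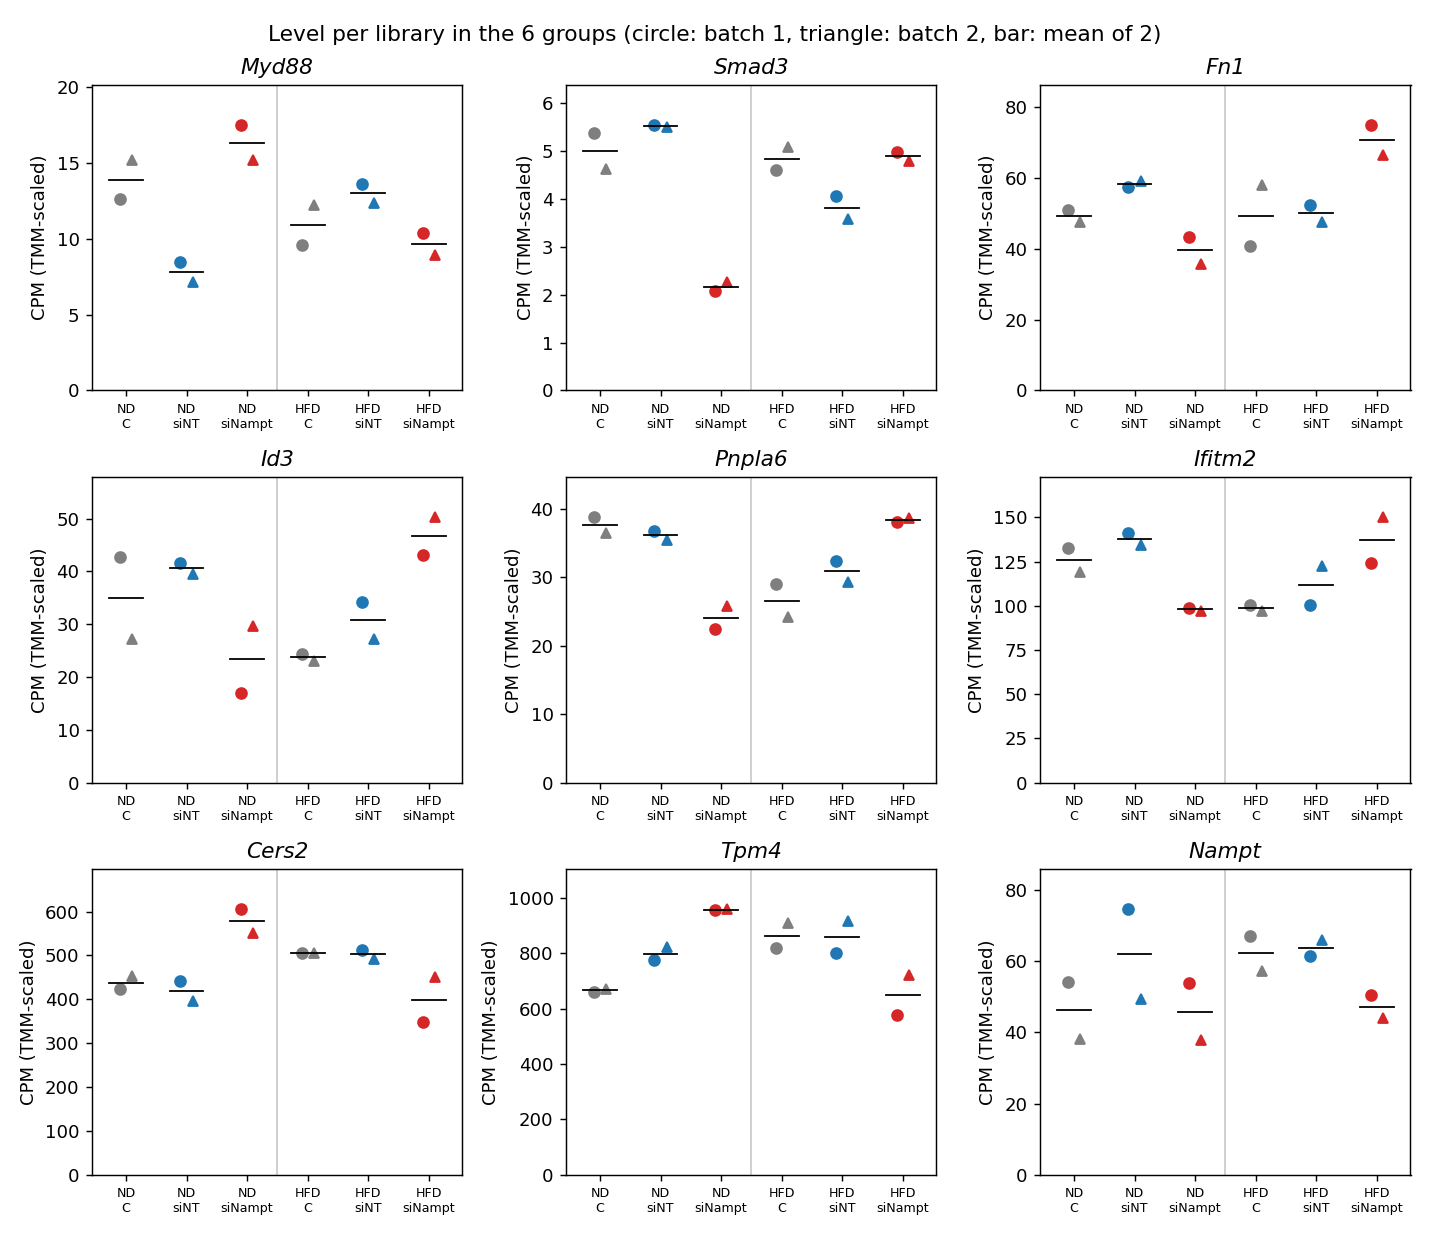
CPM (y axis, from 0) of 9 genes in each of the 12 libraries, by group (x axis); circles are batch 1, triangles batch 2 and bars the mean of 2. The ND siNampt libraries are the lowest 2 for Smad3 and the highest 2 for Cers2 and Tpm4, and the HFD siNampt libraries are the highest 2 for Fn1 and Id3.

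Genes that differed most with C as reference included some that varied widely between libraries. Eif3j1 had 7.23 and 35 CPM in ND C and 0 and 0 in HFD C, against 0.0209 and 0 in ND siNampt and 23.7 and 0 in HFD siNampt. Gm4027 had 31.9 and 7.54 CPM in ND C and at most 1.49 in any other library. Replicates of a group were thus far apart for both genes, and with siNT as reference the edgeR unadjusted p was 0.766 for Eif3j1 and 0.471 for Gm4027.

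The TGF-beta, Nodal, BMP and SMAD list had 42 measured members of 50. Of these, 31 had a positive difference with siNT and 28 with C, against 51.3% and 53.7% of all genes tested. At an unadjusted p under 0.05, 4 members were higher and 0 lower, and with C 3 and 0. These are 9.52% and 7.14% of the list, beside 3.06% and 4.21% of all genes. Smad3 and Id3, named above for their small p, are among the 4 with siNT. The list was chosen with earlier results of these data known, so its shares are a description and no support for the list. The list shares Gdf3, Bmp4, Nodal and Tdgf1 with the inner cell mass list and Id2 with the trophectoderm list. The median was 0.20 with siNT and 0.32 with C, beside 0.0153 and 0.0442 over all genes.

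Among ligands, Bmp2, which signals through SMAD1 and SMAD5, had few reads: 5 and 35 with siNT in ND, 4 and 4 with siNampt, and 2 and 15 against 61 and 44 in HFD. The HFD siNampt libraries held the most Bmp2 counts of all 12, and a fitted fold of such low counts depends on the prior count. Bmp4 was 13.6 and 4.76 CPM with siNT in ND, 8.82 and 9.62 with siNampt, and 7.99 and 11.4 against 13.5 and 15.2 in HFD; its difference was 0.56 (SE 0.57). Nodal (-0.42, SE 1.49) and Gdf3 (0.21, SE 0.31) had differences within their errors.

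Among receptors, Acvr2a, which binds activin, was 17.6 and 20.2 CPM with siNT in ND, 13.1 and 14.3 with siNampt, 14.6 and 8.86 with siNT in HFD and 15.5 and 16 with siNampt. Its difference was 0.89 (SE 0.37) with siNT and 0.20 (unadjusted p 0.594) with C. Bmpr2 had 0.54 (SE 0.40), Tgfbr1 0.47 (SE 0.54) and Bmpr1a 0.08 (SE 0.24).

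Among signal carriers, Smad3 stood apart: Smad2 had -0.21 (SE 0.28), Smad4, the partner of all receptor SMADs, 0.04 (SE 0.26), Smad5 0.24 (SE 0.37) and Smad1 -0.20 (SE 0.49). The feedback inhibitor Smad7 had 0.35 (SE 0.30) with siNT and 0.59 with C. Of the Id targets measured, Id3 had 1.4, Id1 0.30 (SE 0.78) and Id2 -0.26 (SE 0.33).

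The list of Toll-like and interleukin-1 receptor signalling had 33 measured members of 41, and Myd88 and Relb were those at an unadjusted p under 0.05 with siNT, in opposite directions. They are 6.06% of the list, beside 3.06% of all genes, and with C the share was 3.03%, beside 4.21%. Relb, an NF-kappaB subunit, was 0.757 and 0.747 CPM with siNT in ND, 0.585 and 0.546 with siNampt, 0.331 and 0.281 with siNT in HFD and 1.07 and 1.47 with siNampt, a difference of 2.45 (SE 0.96) with siNT and 1.81 with C. The kinases and adaptors next to Myd88 had differences within 2 SE: Irak1 0.35, Irak2 -0.15, Irak4 -0.52, Traf6 0.36 and Tirap -0.81. The NF-kappaB subunit Rela had -0.04 and the inhibitor Nfkbia -0.45. Over this list the median was 0.04 with siNT and 0.10 with C.

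The matrix and basement membrane list (29 measured) had a median of 0.13 with siNT and 0.43 with C. Fn1 was higher and Timp3, a metalloproteinase inhibitor, lower at an unadjusted p under 0.05 with siNT. They are 6.9% of the list, beside 3.06% of all genes, and with C the share was 13.8%, beside 4.21%. Timp3 was 18 and 7.69 CPM with siNampt in ND and 7.7 and 6.33 in HFD, against 8.51 and 9.85 and 11.2 and 12.4 with siNT, a difference of -1.23 (SE 0.54), which was -0.50 without ND siNampt replicate 1. The laminin chains Lamb1 (0.28), Lamc1 (0.07) and Lama1 (0.16) and the collagen chains Col4a1 (0.24) and Col4a2 (0.27) had SE of 0.44 to 0.56. With siNT the matrix median was 0.50 from batch 1 libraries and -0.12 from those of batch 2, so the batches had opposite signs. That of the primitive endoderm list (24 measured), whose cells secrete this membrane, was 0.54 in batch 1 and -0.12 in batch 2.

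Trophectoderm and inner cell mass lists lay on opposite sides of 0. Of 24 trophectoderm genes, 18 had a negative difference with siNT and 19 with C, with medians of -0.40 and -0.26. Of 27 inner cell mass and pluripotency genes, 21 had a positive difference with siNT and 24 with C, with medians of 0.19 and 0.39. Over all genes 51.3% were positive with siNT and 53.7% with C. At an unadjusted p under 0.05 with siNT were 0 higher and 2 lower trophectoderm genes, and 2 higher and 0 lower inner cell mass genes, which are 8.33% and 7.41% of the lists, beside 3.06% of all genes. With C the shares were 4.17% for trophectoderm, near the 4.21% of all genes, and 11.1% for inner cell mass. Each median kept its sign in both batches: -0.31 and -0.41 for trophectoderm and 0.18 and 0.31 for inner cell mass.

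Krt18 and Krt8, the keratin pair of the trophectoderm epithelium, showed the pattern at high level. Krt8 was 1342 and 1342 CPM with siNT in ND, 1901 and 1863 with siNampt, 1492 and 1341 with siNT in HFD and 1451 and 1695 with siNampt. The siNampt libraries were above siNT in ND and overlapped it in HFD; the difference was -0.34 (SE 0.18) with siNT and -0.17 with C. Krt18 had -0.49 (SE 0.25) and -0.28. Krt19 was 17 and 9.66 CPM with siNampt in ND against 4.52 and 5.13 with siNT, and 12.2 and 10.9 in HFD against 11.8 and 9.33; its difference was -1.34 (SE 0.52) with siNT and 0.42 with C, opposite signs. Lgals3, a secreted lectin, had -1.31 (SE 0.49) and -0.37. The lineage regulators had smaller values: Cdx2 -0.34 (SE 0.43), Eomes -0.68 (SE 0.50), Gata3 -0.03 (SE 0.20) and Tfap2c -0.46 (SE 0.30) with siNT. Lrp2, an endocytic receptor, went the other way with 0.61 (SE 0.29).

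Of the pluripotency regulators, Sox2 was 10.5 and 7.73 CPM with siNT in ND, 6.14 and 2.98 with siNampt, 7.37 and 8.53 with siNT in HFD and 10.9 and 7.87 with siNampt. Its difference was 1.24 (SE 0.54) with siNT and 1.02 (SE 0.54) with C. Prdm14, a repressor that guards naive pluripotency, had 1.52 (SE 0.57) and 1.46 (SE 0.57), and Esrrb 1.28 (SE 0.60) and 1.09. Pou5f1 (-0.29, SE 0.33), Nanog (-0.24, SE 0.43) and Klf5 (-0.38, SE 0.27) were on the negative side with siNT.

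**Figure D4:**
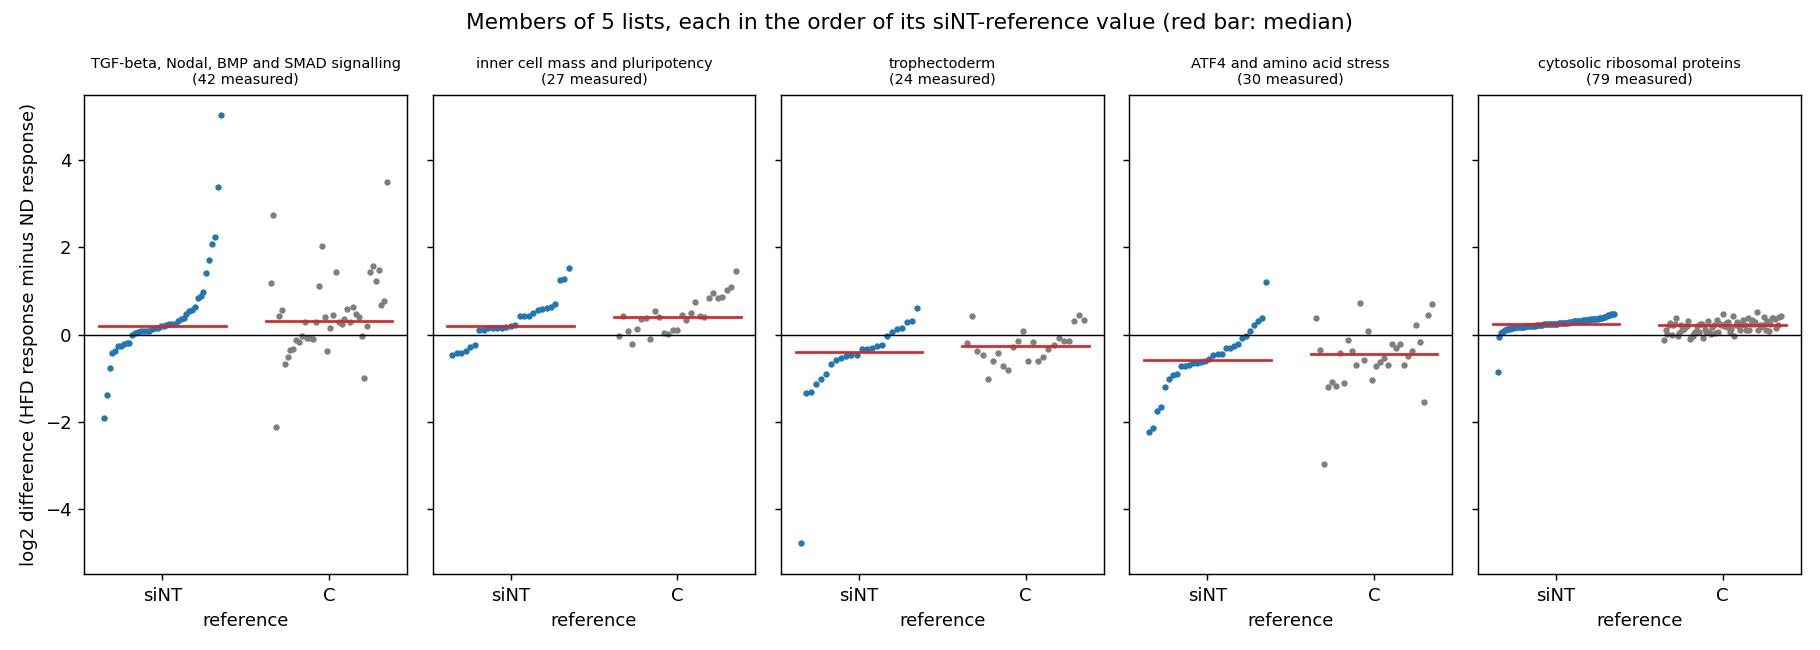
Difference between diets (y axis, log2) of each measured member of 5 lists with siNT (blue) or C (grey) as reference (x axis), in the order of the siNT values; red bars are medians. Trophectoderm and ATF4 lists have medians below 0 and the other 3 above 0 with both references, while single members lie on both sides.

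Stress and growth lists were less even across libraries. The ATF4 and amino acid stress list, whose genes import and make amino acids when the kinases of the integrated stress response act, had 25 of 30 members negative with siNT and 24 with C. Its medians were -0.59 and -0.45, and 0 members had an unadjusted p under 0.05 in either comparison. Trib3, an ATF4 target, was 13.9 and 5.55 CPM with siNT in ND, 28.2 and 2.38 with siNampt, 10 and 27.8 with siNT in HFD and 8.62 and 10.3 with siNampt. Asns, asparagine synthetase, was 380 and 262, 375 and 135, 259 and 433, and 212 and 192 CPM in the same order. For both genes the ND siNampt libraries lay far apart, with batch 1 the higher. Without ND siNampt replicate 1 the list median was 0.17 with siNT and 0.39 with C. From batch 1 alone it was -0.29 and -0.26, and from batch 2 alone, which lacks that library, -0.42 and -0.33.

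The cytosolic ribosomal protein list had 77 of 79 members positive with siNT and 71 with C, at small size: the medians were 0.25 and 0.21. Rps21 was 310 and 327 CPM with siNT in ND, 227 and 234 with siNampt, 293 and 288 with siNT in HFD and 313 and 274 with siNampt, a difference of 0.48 (SE 0.19). Rps10 had 0.42 (SE 0.17) and Rpl17 0.38 (SE 0.17), and 4 members (5.06%) were at an unadjusted p under 0.05 with each reference, near the 3.06% and 4.21% of all genes. These transcripts are short, with a median length of 684 bases, and after a correction for GC content and length the median was 0.14 with siNT and 0.05 with C. The respiratory chain list (75 measured) had a median of 0.10 with siNT, 0.31 in batch 1 and -0.13 in batch 2.

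The p53 list, which holds Trp53 and its targets, had 22 of 32 members negative and a median of -0.38 with siNT, but 20 positive and 0.05 with C. Mdm2, the ubiquitin ligase of p53, was 112 and 104 CPM with siNT in ND, 127 and 173 with siNampt, 103 and 162 with siNT in HFD and 96.7 and 120 with siNampt, a difference of -0.75 (SE 0.30) with siNT and -0.38 with C. Without HFD siNT replicate 2 Mdm2 had -0.40, and without ND siNampt replicate 2 the list median was -0.11. Ddb2 had -1.04 (SE 0.45) and -0.45. The cholesterol synthesis list had a median of -0.32 with siNT and -0.04 with C; Acat2 had -0.64 (SE 0.25) and Nsdhl -0.63 (SE 0.26). For both lists the value depended on which control served as the reference.

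The fatty acid and lipid droplet list had 28 of 38 members negative with siNT and 25 with C, with medians of -0.19 and -0.08. Elovl1, which elongates long fatty acids, had -0.55 (SE 0.22) and -0.47, in the same direction as Cers2, while Acsl4 had 0.85 (SE 0.37) and 0.96. The tight junction and cavity list had a median of -0.14 with siNT and -0.09 with C, and Aqp3 was its single member at an unadjusted p under 0.05 with siNT. That is 3.57% of the list, near the 3.06% of all genes, and with C the share was 10.7%, beside 4.21%. The list of NAD synthesis and use, the pathway of the targeted enzyme, had 22 members on each side and a median of -0.01 with siNT and -0.04 with C. Within it Sirt1, a NAD-dependent deacetylase, had 0.68 (SE 0.30), Parp14 -1.44 (SE 0.55) and Adprhl2, which removes ADP-ribose, -1.11 (SE 0.37) with siNT, and 0.32, 0.63 and -0.25 with C.

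Foreign RNA sensing and interferon genes (25 measured of 35) had 2 higher and 3 lower members at an unadjusted p under 0.05 with siNT, and a median of 0.33 with siNT and 0.47 with C. These 5 are 20% of the list, beside 3.06% of all genes. With C, 3 members were higher and 0 lower, a share of 12% beside 4.21%. Batch 1 libraries gave a median of -0.08 with siNT and -0.22 with C, those of batch 2 gave 0.32 and 0.93, and with siNT it was -0.01 without HFD siNampt replicate 2. Ifitm2 and the receptor chain Ifnar1 (0.82, SE 0.33) were higher. Oasl2 was 0.379 and 0.327 CPM with siNT in ND, 0.69 and 2.11 with siNampt, 0.849 and 0.818 with siNT in HFD and 0.214 and 0.533 with siNampt, so its siNampt libraries did not overlap siNT in either diet. With C, where ND held 1.35 and 4.95 CPM, its difference was 0.01. Median values of the remaining lists with siNT and C, in that order, were -0.06 and 0.19 for integrins and focal adhesion, -0.01 and 0.16 for Hippo, -0.15 and 0.03 for glycolysis, 0.11 and 0.12 for insulin, IGF, adipokine and AMPK, -0.02 and 0.20 for the BCL2 family and caspases, 0.01 and -0.02 for ER and heat shock chaperones, -0.06 and 0.003 for antioxidant defence, and -0.03 and -0.05 for the cell cycle.

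**Figure D5:**
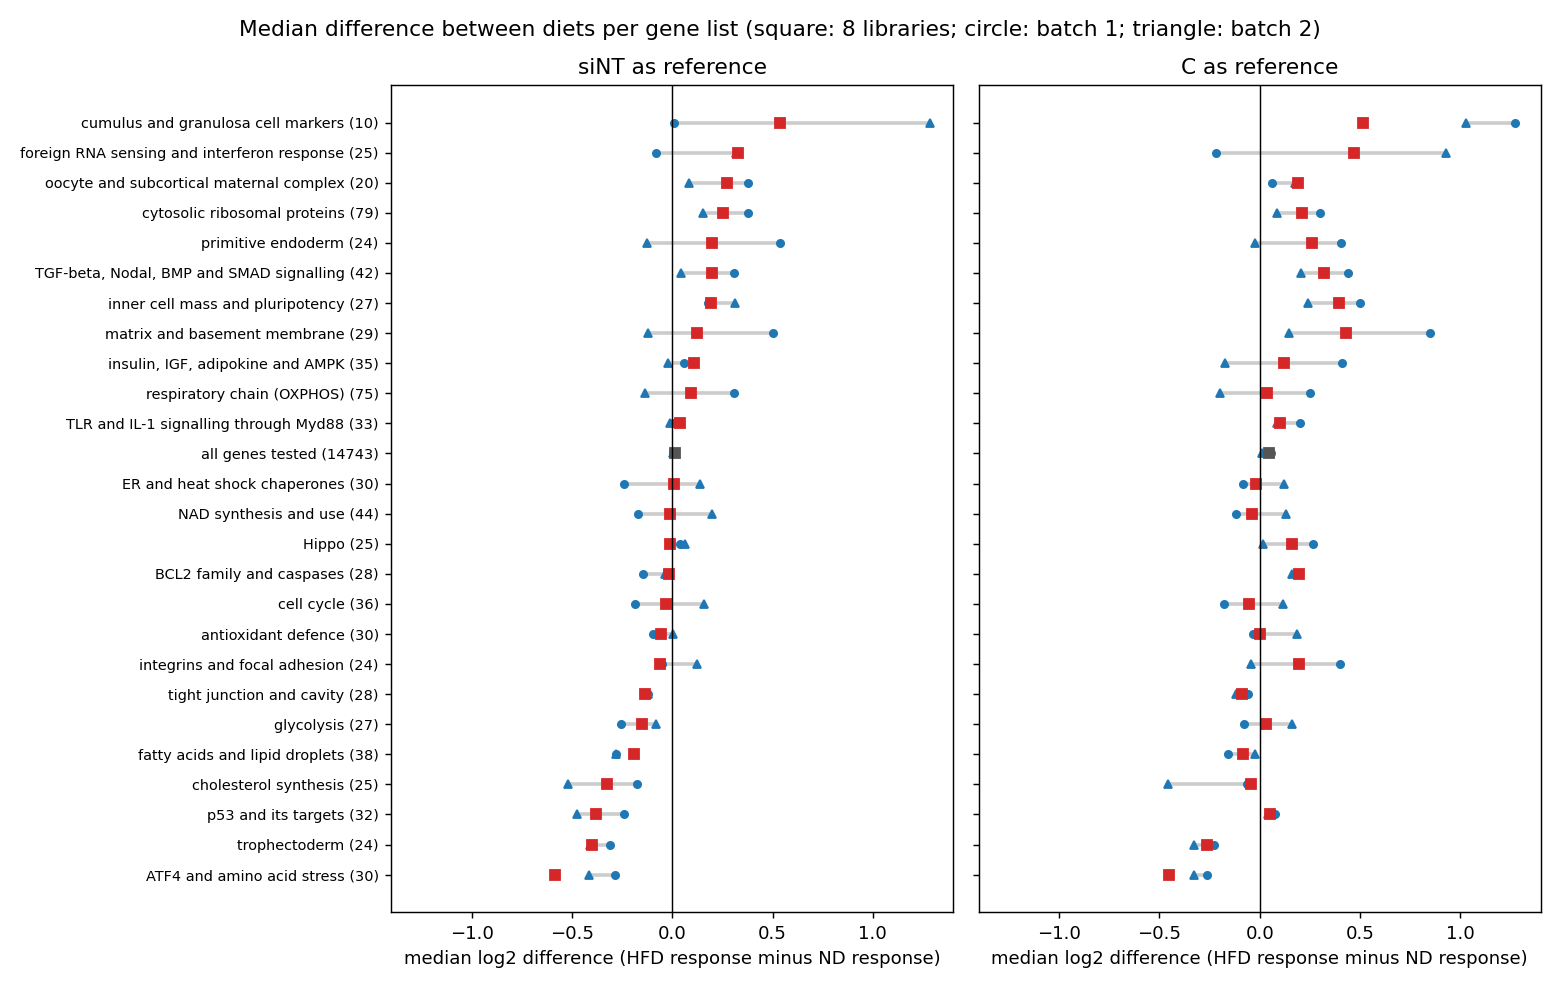
Median difference between diets (x axis, log2) of 25 gene lists and of all genes tested (y axis, number of measured genes in parentheses), with siNT (left) or C (right) as reference; squares are all 8 libraries, circles batch 1 and triangles batch 2. Trophectoderm and ATF4 medians lie below 0 in both batches with both references, ribosomal, inner cell mass and TGF-beta medians above 0, and matrix and primitive endoderm batches lie on opposite sides of 0 with siNT.

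Library-wide measures were as follows. Totals were 42473129 to 50503064 expected counts per library, a 1.19-fold range. Replicates correlated across genes at r of 0.961 (HFD siNampt) to 0.980, and the median absolute log2 ratio between replicates was 0.301 in HFD siNampt and 0.184 to 0.235 elsewhere. Summed CPM of 9 Y-linked genes, which follows the share of male embryos in a pool, was 351 and 91.8 in ND siNampt and 162 and 68 in HFD siNampt, against 316 and 429 and 311 and 198 with siNT. In C it was 327 and 116 in ND and 318 and 288 in HFD. Cumulus and granulosa markers, from cells that surround the oocyte, summed to 319 and 241 CPM in ND siNampt and 185 and 183 in HFD siNampt, against 230 and 164 and 214 and 150 with siNT. In C the sum was 248 and 216 CPM in ND and 301 and 239 in HFD. Of these markers 10 of 20 were measured and Serpine2 made up most of the sum, while the defining Fshr and Amh were at or near 0 in all libraries. Sperm markers summed to 37.4 to 59.9 CPM and blood markers to 20.1 to 47.9, and the oocyte and maternal complex list to 1007 to 1437. Medians of the difference for these lists with siNT and C were 0.54 and 0.51 (cumulus), 0.10 and 0.79 (sperm), -0.70 and 0.73 (blood), 0.27 and 0.19 (oocyte), 0.14 and 0.76 (two-cell stage, 8 measured) and -0.43 and -0.90 (Y-linked). With genes in 4 equal groups by GC content, the median with C went from -0.151 in the lowest to 0.234 in the highest, and with siNT it was 0.004 to 0.025. In 4 groups by transcript length, shortest to longest, the siNT medians were 0.044, -0.115, -0.02 and 0.131, and those with C 0.036, -0.054, 0.038 and 0.164. Effective length, which depends on fragment size, was shorter than full length by 186 bases in HFD siNT replicate 1 and 211 to 231 in the other libraries. The part of any of these in the results above was not tested.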

How the data were processed

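Poly(A) RNA libraries were made from 12 pools of 10 blastocysts with a SMART-Seq v4 PLUS kit, per the labels. The submitters' processing notes name STAR 2.7.10, RSEM 1.2.28 and mm10. Per the file headers, the authors deposited RSEM expected counts, TPM, and gene lengths with effective lengths (bases). The sources used here do not state strandedness, so overlapping antisense genes are uncertain. Of the deposited expected counts 6.43% were not whole; all were rounded.

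edgeR 4.0.16 (R 4.3.3) filterByExpr (minimum count 10) left 14743 of 24411 genes. TMM-scaled counts of all 12 libraries entered a quasi-likelihood model of the 6 group means, without a batch term, and contrasts gave each diet's response and their difference, two-sided, with Benjamini-Hochberg adjustment and a threshold of 0.05. SE is the absolute log2 value over the square root of F; 95% intervals use 6 residual and 6.31 prior degrees of freedom. Per-batch values are log2 CPM differences with a prior count of 2. The method was tested on simulated data. These were drawn without correlation between libraries of the same replicate number, so the test does not cover such correlation.

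Named genes are Nampt, Myd88, Smad3, Fn1, the 12 (siNT) or 5 (C, mean) genes of smallest p in each direction with a mean of at least 2 CPM, and the 2 members of smallest p from each of 29 lists; other list members named by role, and Tgoln2, Gm5424 and Supt20, were chosen after their values were seen. Members and lists were chosen with earlier results of these data known. Each share of list members at an unadjusted p is therefore a description and no support for the list.

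The batch label equals the replicate number in every group, which pairs libraries by label. The difference between replicates 1 and 2 correlated across genes between groups at r of -0.109 to 0.557 (15 pairs of groups, median 0.156, 10 above 0.1). The 6 pairs within a diet had r of 0.156 to 0.557, and every negative r was between diets. The model has no batch term; both a common block and a block within diet are among the alternatives.

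Alternatives were DESeq2 1.42.0, RLE factors, no filter, a 5 CPM filter, limma 3.58.1 on log2 TPM (the authors' deposited values, pseudocount 1, minimum mean 1), the replicate block, a block within diet, a GC and length correction, a Y-linked covariate, the compared libraries alone, and leaving out each library. GC content was matched for 99.5% of genes tested.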

Additional observations from a re-analysis of the deposited data

Results flagged for a closer look

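For 4 of the 29 gene lists the median of siNampt over its reference lay on one side of 0 in both ND pairs of libraries (same batch) and on the other side in both HFD pairs. This held with siNT, C or both, and how often signs alone give the pattern was not tested. The difference was not tested for the list in any of these cases. For the TGF-beta, Nodal, BMP and SMAD list the pair medians with siNT were -0.206 and -0.166 in ND and 0.3 and 0.095 in HFD, with a median difference of 0.20; with C they were -0.046 and -0.027, and 0.205 and 0.103, with 0.32. For the inner cell mass and pluripotency list they were -0.238 and -0.16, and 0.147 and 0.239 with siNT, and -0.308 and -0.131, and 0.195 and 0.165 with C, with median differences of 0.19 and 0.39. For fatty acids and lipid droplets they were 0.217 and 0.243 in ND and -0.026 and -0.006 in HFD with siNT, with -0.19, and the pattern was absent with C. For the cumulus and granulosa markers, of which 10 were measured, the pair medians with siNT were -0.058 and -0.504 in ND and 0.023 and 0.452 in HFD. With C they were -0.095 and -0.412, and 0.312 and 0.602. The median differences were 0.54 with siNT and 0.51 with C. Of the measured markers, Tnfaip6, Hsd3b1 and Vcan had at most 0.297, 0.917 and 0.384 CPM in any library. Serpine2, which made up most of the summed CPM, had 299.6 and 219.5 CPM with siNampt in ND. There siNT had 209.4 and 134.9 and C 228.3 and 189.5. In HFD it had 162.6 and 161.8 with siNampt, 191.6 and 136.4 with siNT, and 282.9 and 220.5 in C. Serpine2 thus ran opposite to the list medians with C and, in ND, with siNT. Its HFD pairs with siNT differed in sign. Over all genes tested the pair medians were 0 to 0.019 with siNT and -0.008 to 0.06 with C. No group has more than 2 libraries, so single libraries were not tested as outliers.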

How the results depend on the processing

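Without a low-count filter, edgeR called 40 (siNT), 83 (C), 77 (mean) and 45 (siNT response) genes at an adjusted p under 0.05, and 901, 1025, 1061 and 688 at an unadjusted p; the prior degrees of freedom were then infinite, so no gene's own spread counted. Id3, Lgals3, Glipr2 and 4930447C04Rik passed there with siNT. With a 5 CPM filter the unadjusted counts were 240, 344, 335 and 147, and with limma on TPM 291, 352, 355 and 204. DESeq2 called 0 genes with siNT, 5 with C (Dstn, Vps45, Eif3j1, Gm4027, Pcdhga4) and 1 (Eif3j1) for the siNT response. The replicate block left 542 genes with siNT at an unadjusted p. Within diet it gave 685, with 859 for C and 874 for the mean reference. It also gave 1 adjusted call with C and 1 for the siNT response (Eif3j1 in both). The pairing changed no other call.

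Leaving out each library gave 313 to 1164 genes (siNT), 492 to 1122 (C), 453 to 1343 (mean) and 277 to 787 (siNT response) at an unadjusted p, and 0 to 2, 0 to 1, 0 to 3 and 0 at an adjusted p. The highest values came without HFD siNampt replicate 2 (calls Tgoln2, Gm5424, Supt20) and, for the siNT response, without HFD C replicate 2, which also gave 980 with C.

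Nampt's difference with siNT was -0.01 under DESeq2, RLE and the block within diet, -0.02 without a filter and with the replicate block, -0.07 with limma and -0.05 with GC and length correction, with or without the block; leaving out a library gave -0.33 to 0.28. Gm5662 with siNT was -0.09 and -0.24 with the 2 blocks and -0.15 and -2.01 without siNampt replicate 1 of ND and of HFD; leaving out a library gave Gm5662 up to 1.98, Eif3j1 -10.01 to 9.87 and Gm4027 -0.48 to 3.56, the lowest without HFD siNampt replicate 1. Odf2 was -0.11 without ND siNT replicate 2 and -0.02 without ND siNampt replicate 1 (up to 0.43 otherwise). Myd88 (-1.62 to -1.32), Smad3 (1.6 to 1.79, below the value filters of 2 settings), Fn1 (0.86 to 1.2), Id3 (1.05 to 1.85) and Cers2 (-1.04 to -0.62) kept their sign in each setting run. They have small p in these same libraries, so a kept sign was favoured in advance and is no support for them. Among the named genes with siNT, only Nampt, Gm5662, Eif3j1, Gm4027 and Odf2 changed sign. Leaving out a library moved Sox2 to 0.79 to 1.85, Acsl4 to 0.49 to 1.3, Krt19 to -1.71 to -0.88 and Lgals3 to -1.78 to -0.73.

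With siNT, 14 of 29 list medians were above 0, 8 with limma on TPM and 10 to 19 leaving out a library; with C it was 20, and 16 to 24. Over all settings the TGF-beta median was 0.10 to 0.37, inner cell mass 0.14 to 0.34, ribosomal 0.14 to 0.29, trophectoderm -0.49 to -0.15 (highest without ND siNampt replicate 1), matrix -0.07 to 0.30 (lowest without HFD siNampt replicate 1) and ATF4 -1.02 to 0.17. The 2 libraries per group limit each value.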
